A study of Mus musculus with 12 samples.

Results

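The epidermal cornification genes described here are the Lce and Sprr rows of the table and 17 genes named singly for their part in cornification, the keratins Krt1, Krt2, Krt10 and Krt77, the envelope proteins Lor and Ivl, the filaggrin family Flg, Flg2 and Hrnr, the enzymes Casp14, Tgm1, Tgm3, Klk5 and Klk7, and the junction proteins Cdsn, Dsg1a and Dsc1. Of 53 such rows 52 were above 0 in at least 1 library, out of 21936 genes in all, and Sprr2k was listed at 0 in every library. The filter on low values (above 1 FPKM in at least 2 libraries, where FPKM is reads scaled to exon length and to the depth of the library) was passed by 47 of the 52, among 13228 genes tested. Lce3d, Sprr2a2, Sprr2b, Sprr2i and Sprr2j-ps did not pass, and Lce3d, Sprr2b and Sprr2i exceeded 1 FPKM only in 1 library, CTL 21h replicate 1.

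The outermost layer of skin and of the lid margin is built by keratinocytes that stop dividing, move outward and turn into flat dead cells, a programme called cornification. Krt1 and Krt10 form the keratin filaments of the first cells that leave the basal layer. Later, involucrin, loricrin and the small proteins of the Sprr (small proline-rich) and Lce (late cornified envelope) families are cross-linked under the cell membrane, filaggrin packs the keratin filaments, and proteases cut the junctions that hold the dead cells together. At the lid margin the same programme lines the orifice and duct of the meibomian gland, whose cells release lipid onto the tear film, where excess cornification is known to accompany blockage of the gland.

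RNA was sequenced from eyelids of male C57BL/6 mice, 6 to 8 weeks old at the start and kept under 12 h of light per day. Controls (CTL) ate a standard diet with 10 kcal% fat and the treated mice (HF) a high-fat diet with 60 kcal% fat, for 3 months by the sample labels and 4 months by the series text, a difference that was not resolved. Tissue was taken at 3 times of day, 9h, 15h or 21h, with 2 libraries for each diet and time and 12 in all, each carrying the replicate number of its label. Whether RNA of several mice was pooled into a library is not given in the sources used here, and the p-values rest on the spread from library to library, which may be technical.

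The labels name meibomian gland and the series text whole upper and lower lids. Markers of several tissues were present in every library. Summed levels were 4420 to 5456 FPKM for 8 markers of basal epidermis such as Krt14, 6141 to 10297 FPKM for 12 markers of meibocytes, the lipid cells of the gland, and 2715 to 7825 FPKM for 10 markers of skeletal muscle. Of the cornea list, 3 genes were in the table and summed to 195 to 400 FPKM. Among them Krt12, the keratin that defines corneal epithelium, was at most 0.292 FPKM, so the sum came almost wholly from Aldh3a1 and Kera. The depth recovered from the FPKM steps was 14096362 to 17889158 reads per library. The 52 genes took 0.203% to 0.659% of the reads, and in bulk tissue fewer cells of a type and less RNA per cell cannot be told apart.

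Most of the genes are neighbours: 40 of the 52 lie on chromosome 3 between 92080271 and 93333570 (GRCm38), a stretch of 1.25 Mb known as the epidermal differentiation complex. Loricrin (Lor, ENSMUSG00000043165, 92080271 to 92083142), Sprr1a (ENSMUSG00000050359, 92483952 to 92485895), Sprr4 (ENSMUSG00000045566, 92500263 to 92500493), Lce1a1 (ENSMUSG00000057609, 92646535 to 92648307) and Lce3a (ENSMUSG00000054325, 92925287 to 92926230) are all on the minus strand there. Krt10 (ENSMUSG00000019761) lies on chromosome 11, 99385254 to 99389364, also on the minus strand. The 150 bases before the RefSeq start site (GRCm38.p6) of these 6 genes are shown, since they stand for the different patterns described below. Krt10, Lor and Lce1a1 stand for genes that varied together between libraries. Sprr1a and Sprr4 had the 2 highest mean FPKM values, and Lce3a was the 1 gene called for time. The Sprr4 model is only 231 bases long, and whether its listed start is where transcription begins was not tested. Capitals mark matches on either strand to TATAAA (an element of core promoters), TGANTCA (the core bound by AP-1) and GGGNGNGG (a GC-rich core of the kind KLF factors bind), which did not overlap each other here.
Krt10 chr11:99389365-99389514 minus strand: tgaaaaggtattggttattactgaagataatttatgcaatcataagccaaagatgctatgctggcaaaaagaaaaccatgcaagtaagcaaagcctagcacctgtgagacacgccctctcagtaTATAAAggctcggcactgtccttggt
Lor chr3:92083143-92083292 minus strand: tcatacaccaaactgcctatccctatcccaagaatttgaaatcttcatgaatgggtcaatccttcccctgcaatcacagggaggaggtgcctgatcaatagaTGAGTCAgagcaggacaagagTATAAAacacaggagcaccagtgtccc
Lce1a1 chr3:92648308-92648457 minus strand: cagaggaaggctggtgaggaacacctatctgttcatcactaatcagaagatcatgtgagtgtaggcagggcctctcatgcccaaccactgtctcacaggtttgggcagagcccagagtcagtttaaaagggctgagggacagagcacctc
Sprr1a chr3:92485882-92486031 minus strand: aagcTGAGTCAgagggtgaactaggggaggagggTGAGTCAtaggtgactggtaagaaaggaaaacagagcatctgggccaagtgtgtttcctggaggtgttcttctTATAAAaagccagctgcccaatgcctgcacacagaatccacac
Sprr4 chr3:92500494-92500643 minus strand: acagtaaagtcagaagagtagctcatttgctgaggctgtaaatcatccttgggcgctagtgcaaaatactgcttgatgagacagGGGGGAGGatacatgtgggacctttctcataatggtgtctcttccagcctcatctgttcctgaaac
Lce3a chr3:92926231-92926380 minus strand: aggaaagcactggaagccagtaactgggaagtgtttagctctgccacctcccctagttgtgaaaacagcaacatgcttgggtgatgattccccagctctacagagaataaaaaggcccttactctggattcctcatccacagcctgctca

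RefSeq gave promoters (250 bases before to 50 after the start) for 47 of the 52 genes, 49 windows in all, and Krt1, Dsc1, Dsg1a, Lce1f and Sprr2j-ps had none. TATAAA was in 19 of the 49 windows (38.8%), against 13.6% of all 32851 promoters of that length. TGANTCA was in 12 of 49 (24.5%), against 7.81% of all. The Sprr family held 8 of those 12 (8 of 13 windows), and the Lce family had none in 20 windows. GGGNGNGG was in 15 of 49 (30.6%), against 49.5% of all promoters. Sprr1a carries TGAGTCA starting 146 and 116 bases before the start and TATAAA at 43, Lor has TGAGTCA at 48 and TATAAA at 27, and Krt10 has TATAAA at 26. Lce1a1 and Lce3a had no match to any of the 3 in their windows. A match is a description of letters and not evidence of binding.

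The cornification genes ranged from 0.0779 to 1476 FPKM in their mean over the libraries and fell into genes with a narrow and genes with a very wide range between libraries. The highest in FPKM were Sprr4 and Sprr1a of the Sprr family, with means over the 12 libraries of 1476 and 1038 FPKM. Sprr2f at 171 FPKM, Klk7 at 158 FPKM and Krt10 at 145 FPKM followed. The rank of Sprr4 depends on its gene model of only 231 bases, since FPKM divides reads by that length. Sprr4 had 2722 to 7536 reads per library, against 9624 to 19905 for Sprr1a. Sprr4 and Sprr1a alone took 17.2% to 51.1% of the reads of all 52 genes. At the other end, the Lce1 genes had means of 1.98 to 19.2 FPKM and the Lce3 genes of 0.509 to 2.94 FPKM, and 10 of the 52 genes were listed at 0 in at least 1 library. The highest library exceeded the lowest at most 3-fold in 9 of the 47 genes tested (Cdsn, Dsc1, Dsg1a, Ivl, Klk5, Klk7, Tgm1, Sprr1a and Sprr2f). It did so at least 10-fold, or had a 0 as its lowest value, in 31.

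**Figure D1:**
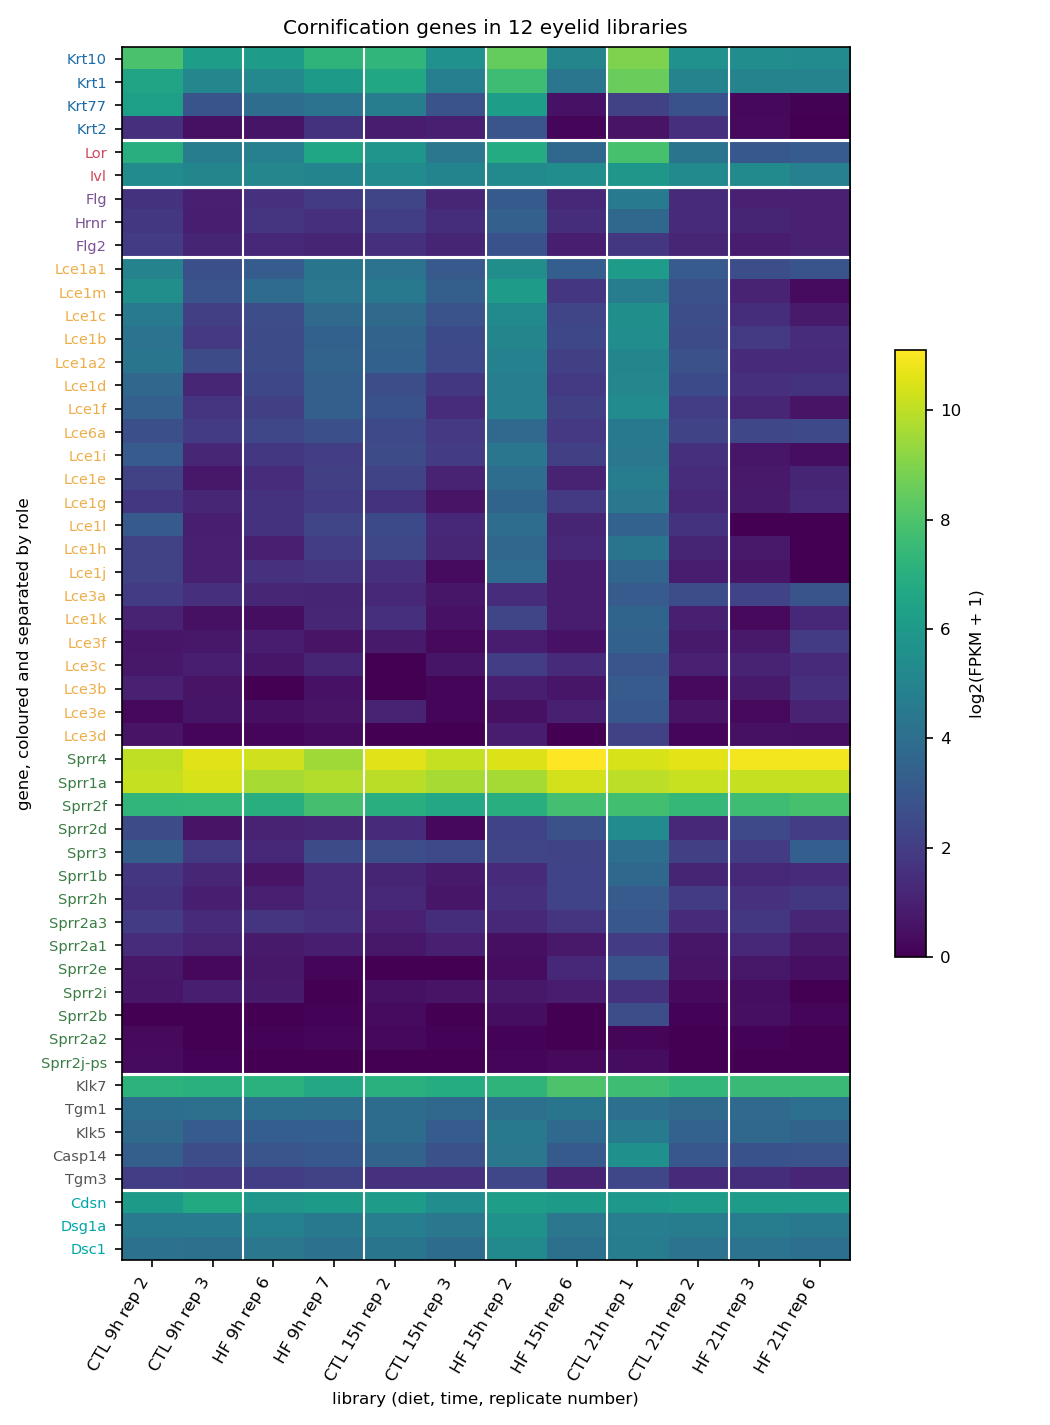
Levels of the 52 genes (rows, coloured and separated by role) in the 12 libraries (columns), as log2(FPKM + 1) on the colour scale. Sprr4 and Sprr1a are bright in every column, whereas the Krt1, Krt10 and most Lce1 rows are brightest in CTL 21h replicate 1 and HF 15h replicate 2.

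Krt10, the type I keratin of differentiating epidermis, differed widely between the 2 libraries of a group. It was at 240 and 72.6 FPKM in controls at 9h, 158 and 47.7 at 15h, and 488 and 48.4 at 21h. In high-fat mice it was at 70.2 and 149 FPKM at 9h, 350 and 32.6 at 15h, and 42.2 and 39.9 at 21h. The highest library, CTL 21h replicate 1, was 15.0-fold above the lowest, HF 15h replicate 6, and the ranges of both diets overlapped widely.

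Its partner Krt1, the type II keratin of the same filaments (ENSMUSG00000046834, chromosome 15, 101845426 to 101850794), followed a similar course. In controls Krt1 was at 89.6 and 33.9 FPKM at 9h, 96.0 and 27.0 at 15h, and 382 and 30.5 at 21h. On the high-fat diet the level was at 35.8 and 64.2 FPKM at 9h, 201 and 19.6 at 15h, and 30.6 and 30.6 at 21h. The level of Krt1 lay between 37.4% and 78.2% of that of Krt10 in all 12 libraries, while Krt1 itself had a 19.5-fold range. That share differed by time of day without overlap, in both diets. It was 37.4% to 51.0% at 9h, 56.5% to 60.8% at 15h and 63.0% to 78.2% at 21h. The difference in share was seen in the values and was not tested.

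The basal keratins varied less. Krt14, the keratin of the dividing layer, ranged from 1501 to 2052 FPKM, and the sum of the 8 basal markers by 1.23-fold. Krt10 was accordingly at 1.71% to 32.4% of the level of Krt14.

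Lor, the most abundant protein of the mature envelope, was at 126 and 24.4 FPKM in controls at 9h, 54.8 and 20.1 at 15h, and 233 and 18.6 at 21h. In high-fat mice it was at 27.3 and 91.4 FPKM at 9h, 113 and 12.1 at 15h, and 7.34 and 8.48 at 21h. Within the 5 groups whose libraries were far apart in Krt10, the library higher in Krt10 was the higher in Lor, and Lor had a 31.8-fold range. Involucrin (Ivl), an early scaffold of the envelope, had a range of only 2.09-fold, from 27.6 to 57.7 FPKM, with a median of 37.8 FPKM.

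**Figure D2:**
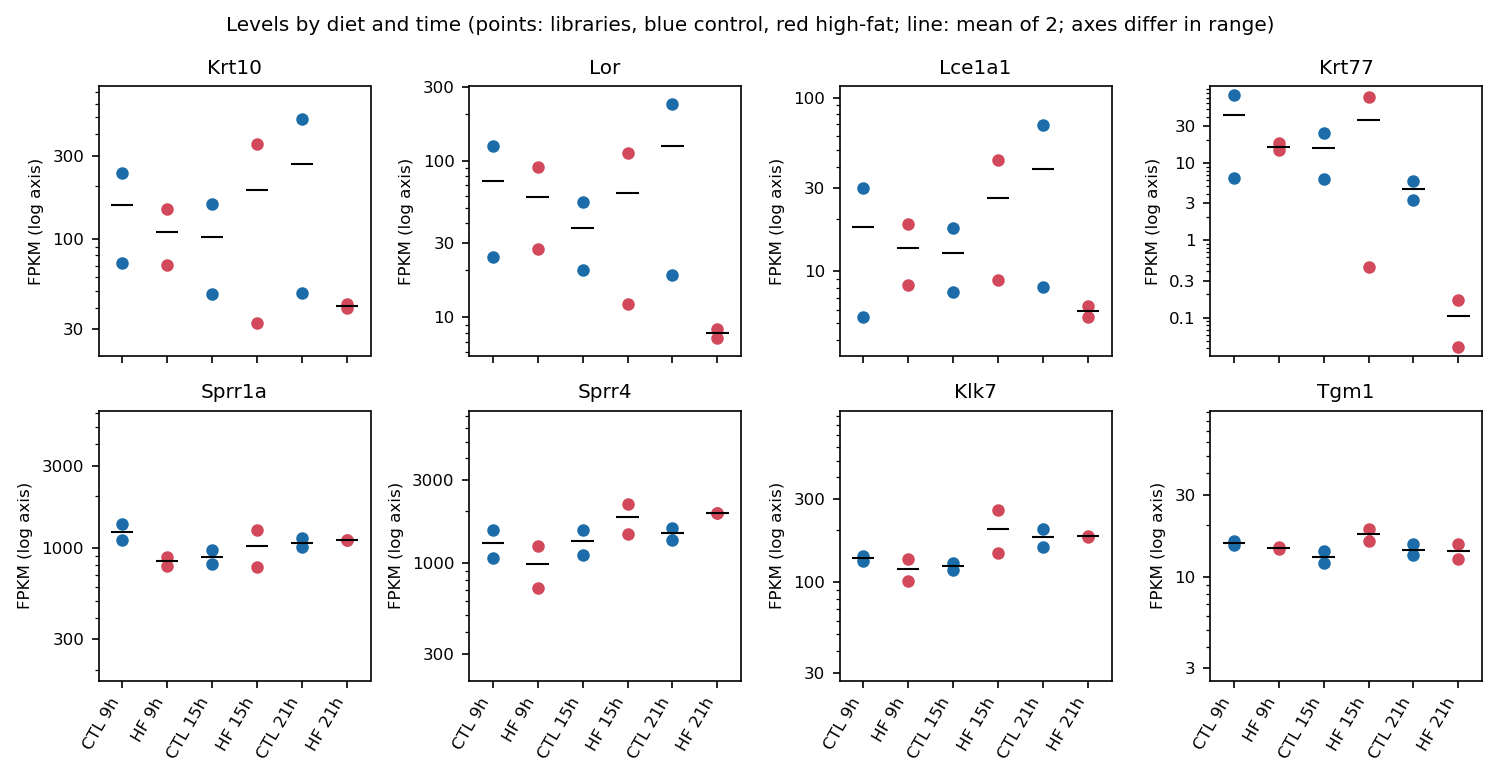
FPKM (log axes that differ in range) of 8 genes by diet and time, with 1 point per library (blue control, red high-fat) and a line at the mean of the 2. Krt10, Lor and Lce1a1 are far apart within most groups and close together only in HF 21h, Krt77 is lowest in HF 21h, and the ranges of Sprr1a (1.77-fold), Sprr4 (3.03-fold), Klk7 (2.55-fold) and Tgm1 (1.57-fold) are smaller than that of Krt10 (15.0-fold).

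The filaggrin family comprises large precursors that are cut into units binding keratin. Flg was at most 22.5 FPKM, in CTL 21h replicate 1, and 7.95 FPKM in HF 15h replicate 2, and between 0.962 and 4.03 FPKM in the other 10 libraries. Hrnr (hornerin) was at 12.4 and 9.64 FPKM in these 2 libraries, and Flg2 at 2.48 and 5.99 FPKM. Their lowest values were 0.924 FPKM for Hrnr and 0.805 FPKM for Flg2.

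The Lce1 genes, 14 short genes of the same complex for envelope proteins that are cross-linked late, varied together. They are neighbours except for Lce1m, which lies beyond the Lce3 genes. Lce1a1 was at 30.2 and 5.47 FPKM in controls at 9h, 17.8 and 7.54 at 15h, and 69.4 and 8.13 at 21h. On the high-fat diet the level was at 8.38 and 18.7 FPKM at 9h, 43.9 and 8.95 at 15h, and 5.43 and 6.31 at 21h. The 2 highest libraries were CTL 21h replicate 1 and HF 15h replicate 2 for 13 of the 14 Lce1 genes, the exception being Lce1m. Lce1c ranged from 0.748 to 45.6 FPKM and Lce1m from 0.253 to 70.0 FPKM. Lce6a, the single gene of its group, ranged from 2.53 to 21.6 FPKM. Lce1 copies are close to each other in sequence. The authors' counting could have assigned reads to the wrong copy or left them out, so values of single copies are uncertain.

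The Sprr family divided differently. Sprr1a, an envelope bridge protein made in many stratified epithelia, was at 1120 and 1380.5 FPKM in controls at 9h, 984 and 811 at 15h, and 1015 and 1143 at 21h. In high-fat mice it was at 794 and 897 FPKM at 9h, 779 and 1281 at 15h, and 1124 and 1124 at 21h. Its lowest library was HF 15h replicate 2, one of the 2 highest in Krt10. The other of these 2, CTL 21h replicate 1, was at 1015 FPKM, near the Sprr1a median of 1068 FPKM. Sprr4 ranged from 721 FPKM (HF 9h replicate 7) to 2189 FPKM (HF 15h replicate 6, the lowest in Krt10), with a median of 1504 FPKM.

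Within the Sprr2 group only Sprr2f was abundant, at 103 to 232 FPKM, and the other members tested had means of 0.927 to 5.63 FPKM. CTL 21h replicate 1 was the highest library for 8 of the 10 Sprr2 genes. Sprr2d was at 39.7 FPKM there and at most 5.72 FPKM elsewhere. Sprr1b, the other Sprr1 gene, was at 12.4 FPKM in that library and at most 3.64 FPKM in the others, with a mean of 2.46 FPKM. Sprr3, abundant in wet-surfaced epithelia, ranged from 1.41 to 15.2 FPKM and was also highest there. Sprr2 genes are close copies and the models of Sprr2a1 and Sprr2a2 overlap, so reads could have been assigned to the wrong copy or left out.

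Of the enzymes, Tgm1, the transglutaminase that cross-links the envelope, had the narrowest range of all 52 genes, 1.57-fold, from 12.1 to 19.1 FPKM with a median of 15.1 FPKM. Klk7, a protease that cuts corneodesmosomes, ranged from 101 to 258 FPKM, and Klk5, which activates it, from 8.38 to 23.0 FPKM. Tgm3, a second transglutaminase, ranged from 1.14 to 4.17 FPKM. Casp14, a caspase that helps degrade filaggrin, was at 46.0 FPKM in CTL 21h replicate 1, 19.9 FPKM in HF 15h replicate 2, and 5.07 to 10.6 FPKM in the other libraries.

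The junction genes had narrow ranges. Cdsn (corneodesmosin), which glues the dead cells together, ranged from 42.7 to 106 FPKM with a median of 66.6. The desmosomal cadherins Dsg1a and Dsc1 ranged from 20.2 to 50.9 FPKM and from 14.3 to 37.1 FPKM, and both were highest in HF 15h replicate 2. Dsg1a has close copies, so its reads are uncertain in the same way.

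The spread between libraries of the same diet and time was wide for most of these genes. The pooled standard deviation within groups of log2(FPKM + 1) had a median of 0.885 over the 47 genes and of 0.152 over all 13228 genes tested. It lay in the top 5% of all genes for 37 of the 47. Krt77 had the largest value of all genes tested, 1.98, followed among the cornification genes by Lor at 1.66, Lce1m at 1.64, Krt1 at 1.57 and Krt10 at 1.57. Tgm1 had 0.131, below the median of all genes, and Sprr1a, Ivl and Klk7 had 0.249, 0.255 and 0.285.

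Each gene's order of the 2 libraries in a group was compared with that of Krt10. Krt10 differed at least 2-fold between the libraries of 5 groups (2.12-fold to 10.8-fold) and only 1.06-fold in the high-fat group at 21h, which was left out. The order was the same as for Krt10 in all 5 groups for 21 of the other 46 cornification genes, against 2.92% of the 13227 other genes tested. These 21 were the 14 Lce1 genes, Lce6a, Krt1, Lor, Flg, Casp14, Tgm3 and Sprr3. No Lce3 gene (of 5 tested), no Sprr2 gene (of 6) and no junction gene (of 3) was among them. The order counts a difference of any size. On the log2 scale it was only 0.016 for Tgm3 in controls at 15h and 0.062 for Sprr3 in high-fat mice at 15h. For Lce1j it was 0.064 in high-fat mice at 9h, where both libraries had 25 reads. Lce3a missed the set by -0.017 in high-fat mice at 9h. This measure rests on 10 libraries and is a description, with no test.

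**Figure D3:**
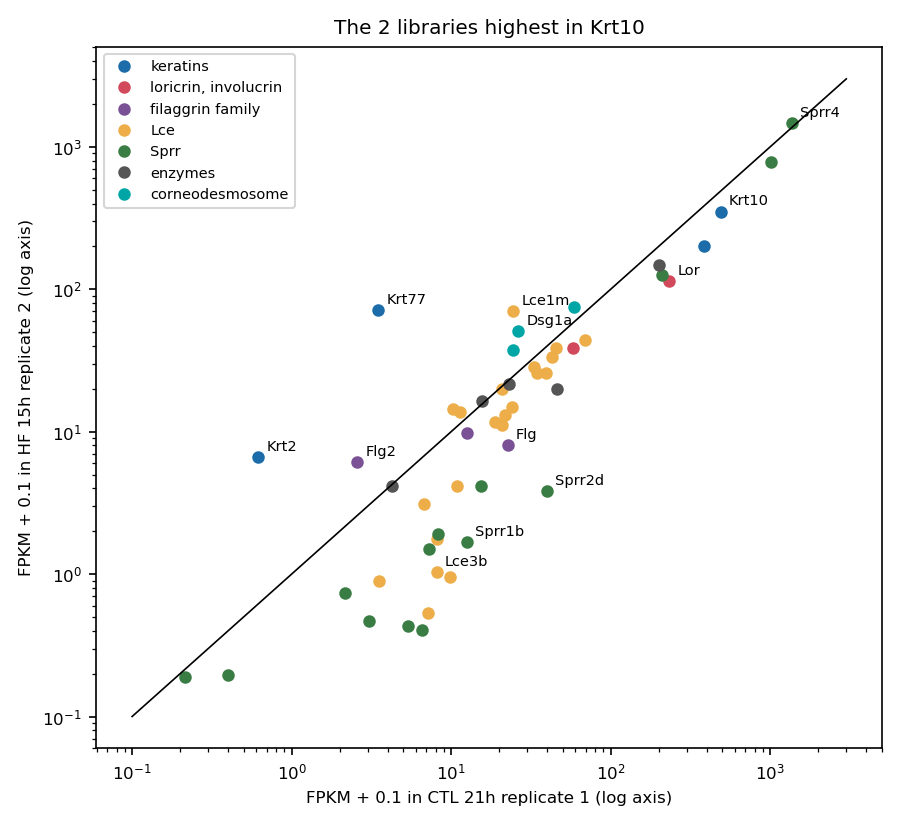
FPKM + 0.1 of the 52 genes in the 2 libraries highest in Krt10, CTL 21h replicate 1 (horizontal, log axis) and HF 15h replicate 2 (vertical, log axis), coloured by role, with a line where both are equal. Krt77 (3.37 and 70.8 FPKM) and Krt2 lie far above the line, and Sprr2d, Sprr1b and the Lce3 genes lie far below it.

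Other genes of the barrier were compared in the same way, from a list of 69 of which 67 were tested. The order of Krt10 was shared in all 5 groups by 8 of them, against 2.92% of the 13227 genes tested besides Krt10. They were Alox12b and Sdr9c7, enzymes that process barrier ceramides, Fa2h, which hydroxylates fatty acids, the calmodulin-like skin genes Calm4 and Calm5, and Sbsn, Kprp and Dmkn, proteins of upper keratinocytes. Calm4 was at 721 and 372 FPKM in CTL 21h replicate 1 and HF 15h replicate 2, and at 121 to 235 FPKM elsewhere. Elane, another gene of the list, was listed at 0 in every library.

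Markers of other tissues were set beside this. In the Krt10 order, none of the tested markers of basal epidermis (8), stressed epidermis (6), hair follicle (13), conjunctiva (11), cornea (2), meibocytes (12) or melanocytes (5) matched in all 5 groups. Of the 10 skeletal muscle markers 8 did, against 2.92% of the 13227 genes tested besides Krt10. The sum of the 10 was higher in the library higher in Krt10 in all 5 groups. In controls it was 7415 and 6114 FPKM at 9h, 5204 and 4069 at 15h, and 4668 and 3063 at 21h. In high-fat mice it was 7825 and 6059 FPKM at 9h, and 3560 and 2715 at 15h. Over all 12 libraries that sum had a 2.88-fold range. Its part in the spread of the cornification genes was not tested.

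The 2 libraries highest in Krt10 differed in which genes were high. HF 15h replicate 2 exceeded CTL 21h replicate 1 by 21.0-fold in Krt77 (a type II keratin, ENSMUSG00000067594, chromosome 15, 101858731 to 101869705), at 70.8 against 3.37 FPKM. It did so by 12.7-fold in Krt2, a type II keratin of the uppermost layers, at 6.52 against 0.514 FPKM, by 2.87-fold in Lce1m, by 2.41-fold in Flg2 and by 1.94-fold in Dsg1a. In the other direction, CTL 21h replicate 1 was higher by 16.5-fold in Lce3e, 11.5-fold in Lce3f, 10.6-fold in Sprr2d, 8.62-fold in Lce3b, 7.99-fold in Sprr2a1 and 7.87-fold in Sprr1b, and by 2.83-fold in Flg, 2.31-fold in Casp14 and 2.06-fold in Lor. In HF 15h replicate 2 the Lce3 values rest on few reads, 4 for Lce3e and 8 each for Lce3f and Lce3b, and Sprr2e was at 0.303 FPKM (3 reads) there against 6.44 FPKM (62 reads). All 5 Lce3 and all 6 Sprr2 genes tested were lower in HF 15h replicate 2, and all 3 junction genes were higher there. Each is 1 library, so these differences have no replicate check.

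Krt77 and Krt2 did not keep to the order of Krt10 in all 5 groups, with 4 and 3 groups in the same order. In controls Krt77 was at 76.5 and 6.35 FPKM at 9h, 24.8 and 6.13 at 15h, and 3.37 and 5.87 at 21h. On the high-fat diet the level was at 14.7 and 18.0 FPKM at 9h, 70.8 and 0.458 at 15h, and 0.169 and 0.0410 at 21h. The lowest of these values rests on 2 reads. Krt2 was highest in HF 15h replicate 2 (6.52 FPKM), and was at 0.103 FPKM in HF 15h replicate 6 and 0.217 and 0.0230 FPKM in high-fat mice at 21h. These low Krt2 values rest on 4, 8 and 1 reads. The level of Krt77 was 0.103% to 31.9% of that of Krt10, with 4 libraries at 1.41% or less, CTL 21h replicate 1, HF 15h replicate 6 and both high-fat libraries at 21h.

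Some genes of stressed or inflamed epidermis separated another set of libraries. S100a9, a calcium-binding protein of neutrophils and stressed keratinocytes, was at 317 FPKM in CTL 21h replicate 1, 154 in CTL 9h replicate 2 and 82.5 in HF 15h replicate 6, and at 13.8 to 27.2 FPKM in the other 9. S100a8, its partner, was at 68.0, 42.4 and 30.7 FPKM in the same 3 libraries and at most 11.7 FPKM elsewhere, and Krt16, a keratin of stressed epidermis, at 55.3, 67.3 and 54.1 FPKM against at most 38.6 FPKM. The 6 measured markers of the stress list, which also holds Krt6a, Krt6b and Krt17, summed to 1020 to 1911 FPKM. The lowest sum was in HF 15h replicate 2. That sum did not set the 3 libraries clearly apart. It was 1911 FPKM in CTL 9h replicate 2, 1804 in CTL 21h replicate 1 and 1690 in HF 15h replicate 6, with CTL 9h replicate 3 close at 1660. CTL 21h replicate 1, the library highest in most Lce3 and Sprr2 genes, was therefore also the highest in S100a8 and S100a9, and the part of this in their levels was not tested.

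The first comparison asked whether the high-fat diet changed these genes. No cornification gene was called by diet averaged over the 3 times. By limma with Benjamini-Hochberg adjustment over all genes, 0 of 47 had an adjusted p under 0.05, against 1.98% of all genes tested (0.204% higher and 1.78% lower in high-fat mice). None of the 47 had an unadjusted p under 0.05, against 14.1% of all genes, and limma-voom on the recovered reads also called 0. The log2 fold change of high-fat minus control was negative in 38 and positive in 9 of the 47, with a median of -0.20, and the median of all genes was -0.0057. The sign of that median turned without CTL 21h replicate 1 (0.12) and without the 3 libraries highest in S100a9 (0.43). With the replicate number as a block the median was 0.68. Control numbers recur on the high-fat diet only in HF 15h replicate 2 and HF 21h replicate 3, so the block fit joins the diets through these libraries alone.

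The intervals of this difference were wide for the genes with a wide spread and narrower for others. Mean Krt10 was 176 ± 171 FPKM on the standard and 114 ± 124 FPKM on the high-fat diet (SD, n = 6 each). Its log2 fold change was -0.65, with a 95% interval of -2.29 to 0.99. The log2 fold change was -0.56 for Krt1 (-2.21 to 1.09), -0.97 for Lor (-2.70 to 0.77) and -1.06 for Krt77 (-3.14 to 1.02). For Lce1a1 it was -0.40 (-1.79 to 0.99), and for Flg -0.34 (-1.56 to 0.87). A level 2-fold lower in high-fat mice lies within the interval of each of these 6 genes.

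For genes with a smaller spread the data bounded the difference more closely. Mean Tgm1 was 14.5 ± 1.53 FPKM on the standard and 15.5 ± 2.11 FPKM on the high-fat diet (SD, n = 6 each). Its log2 fold change was 0.09, with an interval of -0.08 to 0.26. The change was -0.11 for Sprr1a (-0.41 to 0.19), 0.14 for Sprr4 (-0.27 to 0.55), 0.27 for Sprr2f (-0.11 to 0.66), -0.16 for Ivl (-0.44 to 0.12), 0.16 for Klk7 (-0.16 to 0.47) and -0.00 for Cdsn (-0.33 to 0.32). A 2-fold difference lies outside each of these 7 intervals.

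**Figure D4:**
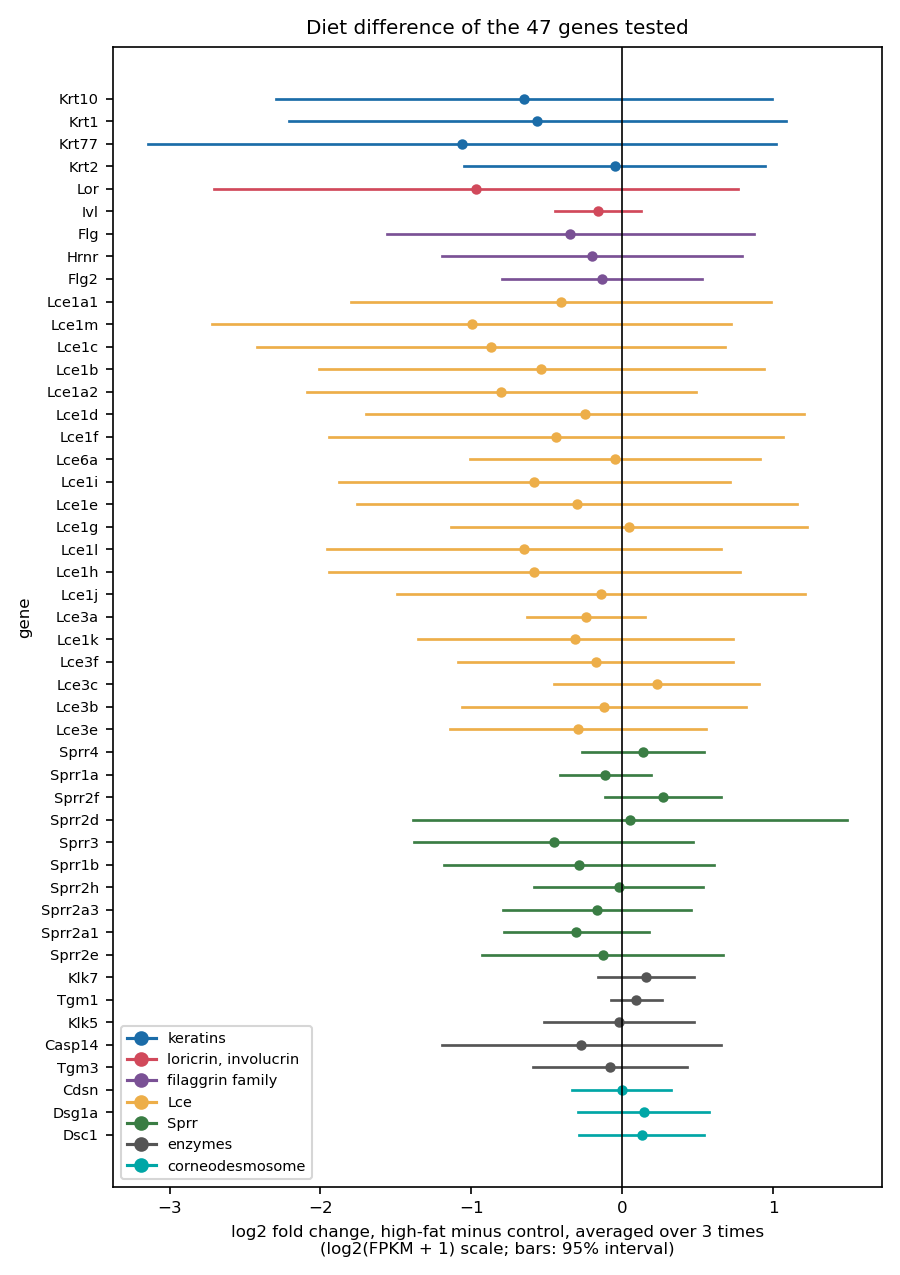
Log2 fold change of high-fat minus control averaged over 3 times (horizontal axis, log2(FPKM + 1) scale) of the 47 genes tested, with 95% intervals and coloured by role. Every interval includes 0, and those of the keratins, Lor and the Lce1 genes are several times as wide as those of Tgm1, Ivl and Sprr1a.

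Within single times the median difference was negative at 9h and 21h and positive at 15h, and the difference between times is tested as the interaction of diet and time. At 9h the median log2 fold change of the 47 genes was -0.08, and 0 were called, as were 0% of all genes. Sprr1a alone had an unadjusted p under 0.05 (7.22% of all genes did), with a log2 fold change of -0.56 ± 0.23 (SE) and a limma adjusted p of 0.662. At 15h the median was 0.55, with 44 of 47 positive, and 0 were called against 0.0605% of all genes. Klk7 (0.66 ± 0.24), Tgm1 (0.40 ± 0.13) and Lce3c (1.35 ± 0.52) had an unadjusted p under 0.05, against 11.6% of all genes, with limma adjusted p of 0.298 to 0.374.

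At 21h the median log2 fold change was -1.13, with 42 of 47 negative. None of the 47 was called, against 0.00756% of all genes. Ivl (-0.52 ± 0.22) and the 6 genes Lce1a2, Lce1c, Lce1f, Lce1i, Lce1l and Lce1m (-2.43 to -2.99) had an unadjusted p under 0.05, against 5.37% of all genes, with limma adjusted p of 0.79 to 0.924. Both libraries of high-fat mice were outside the control range for 25 of the 47 genes at 21h (24 lower, and Sprr4 higher), against 37.8% of all genes. The corresponding counts were 7 at 9h, against 29.8% of all genes, and 11 at 15h, against 45.7%. None of the 47 kept the diets apart at every time, against 2.25% of all genes. Without CTL 21h replicate 1 the median at 21h was -0.17, and without HF 15h replicate 2 the median at 15h was -0.08, so each of these medians came close to 0 without 1 library. Leaving out the other library of the same group gave -2.30 at 21h (CTL 21h replicate 2) and 1.39 at 15h (HF 15h replicate 6). Limma-voom called 0 of the 47 at each time.

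The second comparison asked whether the diet difference depended on the time of day. No gene of the 47 was called for the interaction of diet and time, as were 0% of all genes, and limma-voom called 0. Tgm1 had an unadjusted p of 0.0495, against 3.06% of all genes with a p under 0.05.

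The third comparison asked whether the genes changed with time of day. Lce3a was the 1 cornification gene called, by the F test of time averaged over diets (1 of 47, against 1.46% of all genes). Lce3a, one of the Lce3 genes known from barrier repair, was at 2.79 and 1.83 FPKM in controls at 9h, 1.41 and 0.576 at 15h, and 8.08 and 5.40 at 21h. In high-fat mice it was at 1.25 and 1.23 FPKM at 9h, 1.66 and 0.856 at 15h, and 3.75 and 6.46 at 21h. All 4 libraries at 21h were above all 8 at the other times, which held for no other cornification gene and for 1.3% of all genes in either direction.

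Lce3a rose by 1.31 ± 0.21 (SE) on the log2 scale from 9h to 21h, and its difference from 9h to 15h was -0.38 ± 0.21 (limma adjusted p = 0.0447 over both). The values rest on 5 to 66 reads per library. The call was kept by limma-voom (adjusted p = 0.0347). Of the 12 limma fits that leave out 1 library it was kept without HF 9h replicate 6, HF 15h replicate 2 or HF 15h replicate 6, and lost without any 1 of the other 9 (adjusted p of 0.0558 to 0.141). It was also lost without the 3 libraries highest in S100a9 (limma adjusted p = 0.181). The other Lce3 genes were not called. Lce3f had a log2 difference of 1.02 ± 0.50 from 9h to 21h and Lce3b of 0.92 ± 0.51, and in both the highest library by far was CTL 21h replicate 1 (9.78 and 8.01 FPKM, against at most 2.85 and 1.93 FPKM elsewhere).

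**Figure D5:**
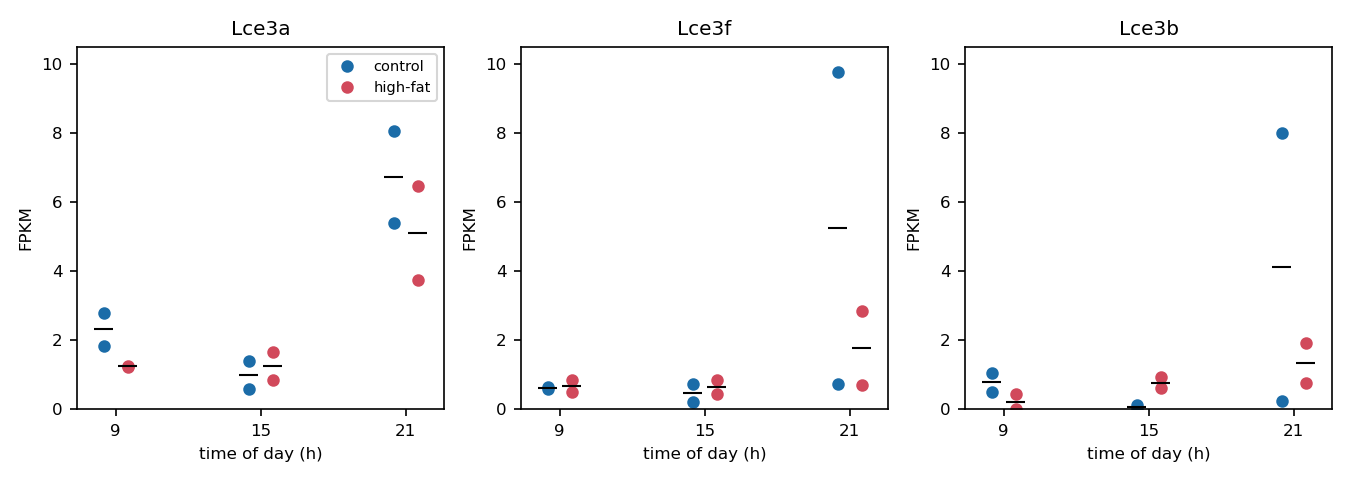
FPKM of Lce3a, Lce3f and Lce3b by time of day, with 1 point per library (blue control, red high-fat) and a line at the mean of the 2. The 4 libraries at 21h are the highest for Lce3a, while for Lce3f and Lce3b 1 control library at 21h stands above all others.

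Another 3 genes had an unadjusted p under 0.05 for time averaged over diets, against 23.6% of all genes. They were Klk7 (0.51 ± 0.17 from 9h to 21h), Sprr2h (0.88 ± 0.31) and Sprr4 (0.62 ± 0.22), with limma adjusted p of 0.192 to 0.208. Within controls alone 0 of 47 were called for time by limma, against 0.0227% of all genes, and 4 had an unadjusted p under 0.05 (18.3% of all genes). Within high-fat mice alone 0 were called, against 0% of all genes, and 4 had an unadjusted p under 0.05 (8.73% of all genes). Limma-voom called 0 in either diet. Krt10 had a log2 difference of -0.54 ± 0.89 from 9h to 21h averaged over diets.

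Among the 67 other barrier genes tested, 0 were called by limma for diet averaged over times (1.98% of all genes) and 7 had an unadjusted p under 0.05 (14.1% of all genes). The smallest p belonged to Grhl3, a transcription factor of barrier formation, at 17.1 to 22.9 FPKM in the 6 control libraries and 11.1 to 18.8 FPKM in the 6 high-fat ones, with a log2 fold change of -0.42 ± 0.098 (limma adjusted p = 0.0768). Next were Tgm2, the tissue transglutaminase (-0.46 ± 0.15, limma adjusted p = 0.212), and St14, the protease matriptase (-0.17 ± 0.060, limma adjusted p = 0.229), and the diets overlapped in all 3 genes. For time averaged over diets 1 of 67 was called (1.46% of all genes), Hopx, a homeodomain protein of differentiating keratinocytes, which rose by 0.70 ± 0.11 on the log2 scale from 9h to 21h (limma adjusted p = 0.0482). It was at 47.1 to 65.5 FPKM in the 4 libraries at 9h, 62.9 to 93.9 at 15h and 82.3 to 103 at 21h, so the libraries at 21h did not overlap those at 9h. The Hopx call was lost in 10 of the 12 fits that leave out 1 library and was kept only without HF 9h replicate 6 or HF 15h replicate 2 (limma adjusted p of 0.00516 to 0.172 over the 12).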

How the data were processed

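The deposited table gives FPKM per gene, which the authors computed from RNA-seq of Trizol RNA prepared with NEBNext Ultra II, per the labels' protocols. HISAT2 2.0.5, HTSeq 0.9.1, DESeq 1.30.0 and the mm9 build are listed, per the submitters' processing notes. However, 21894 of the 21936 gene identifiers are in GENCODE M21 (GRCm38), whose coordinates are given here. The strand setting of the counting is not given in the sources used here. With M21 exon lengths, 98.12% of FPKM values were whole reads within 0.02 reads, which gave depths of 14096362 to 17889158 reads per library.

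Genes above 1 FPKM in at least 2 libraries were fitted as log2(FPKM + 1), with a pseudocount of 1, with limma 3.58.1 in R 4.3.3. One mean was fitted for each of the 6 groups (6 residual degrees of freedom). Contrasts were diet at each time and averaged, their interaction, and time within and over diets. Benjamini-Hochberg adjustment ran over all 13228 genes, with calls at an adjusted p under 0.05. Fold changes are on the log2(FPKM + 1) scale, which understates those of low genes. Python 3.11.15 with pandas 2.3.3 and numpy 2.4.6 was used for the rest.

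Named were the genes listed singly, the 3 Lce and 3 Sprr genes with the highest mean, any gene called, and, of the other barrier genes, those called and the 3 with the smallest p for diet. Further genes (such as Lce3b, Lce3f, Sprr1b, Sprr2d, Calm4 and S100a9) were chosen after their values were seen. The members and lists were chosen with earlier results of these data known. Alternatives were another pseudocount, no filter, centred libraries, limma-voom on recovered reads, fewer libraries, a replicate block and a basal epidermis covariate. All 12 libraries were used.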

Additional observations from a re-analysis of the deposited data

Results flagged for a closer look

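In 5 of 48 groups of 6 libraries tested (24 named genes, each diet over all times), the highest library lay far from the others on the log2(FPKM + 1) scale, by a gap to the next library that exceeds Dixon's 95% critical share of the group's range. On the linear scale of the FPKM values given here other groups also pass, such as Flg in controls (22.5 FPKM in CTL 21h replicate 1, next 4.03 FPKM). Chance flags about 1 in 20 groups, and these genes are not independent of each other. HF 15h replicate 2 was that library in 4 of the 5. Among high-fat libraries it was at 37.1 FPKM for Dsc1, a desmosomal cadherin (next 20.4 FPKM), and at 19.9 FPKM for Casp14, the caspase of filaggrin breakdown (next 7.90 FPKM). It was at 5.99 FPKM for Flg2 (next 1.34 FPKM) and at 9.64 FPKM for Hrnr (next 2.27 FPKM), both of the filaggrin family. Among control libraries, CTL 21h replicate 1 was at 46.0 FPKM for Casp14 (next 10.6 FPKM).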

How the results depend on the processing

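Across the 20 or 21 settings run for each, no cornification gene was called in any diet contrast or the interaction, and of 1992 diet values of the 24 named genes under alternatives 0 were called (smallest limma adjusted p = 0.0583). Leaving out 1 library moved the median log2 fold change of the 47 genes from -2.30 to -0.17 at 21h, from -0.08 to 1.39 at 15h, from -0.44 to 0.31 at 9h and from -0.60 to 0.12 averaged. With the replicate number as a block the median at 21h was 0.76 and the averaged one 0.68. That fit keeps 2 residual degrees of freedom, and only the controls at 9h and 15h share both numbers, with deviations correlated at -0.0827. Between the diets, numbers recur only through HF 15h replicate 2 and HF 21h replicate 3, so the block fit joins the diets through these libraries alone. Numbers shared by 1 library of a group (2 in controls, 6 in high-fat mice) were not checked. The sources used here do not say what a number marks, so pairing was not shown. For time averaged over diets, 0 to 1 genes were called when 1 library was left out. The count was 0 with no filter, with the replicate block, with the basal epidermis covariate, and without CTL 9h replicate 2, HF 15h replicate 6 and CTL 21h replicate 1 together (chosen after seeing the data). It was 2 (Lce3a and Tgm3) without HF 15h replicate 2 and CTL 21h replicate 1 together. For time within controls, 0 to 1 genes were called when 1 library was left out, and 1 (Lce3a) with the compared libraries only. The cause of these differences was not tested. Lce3a had limma adjusted p of 0.0764 with no filter, 0.0670 with the covariate and 0.126 with the block. Hopx had 0.0504 with a pseudocount of 0.1 and 0.0506 with libraries centred on their median. Grhl3 was called for diet without HF 21h replicate 6 (log2 fold change -0.51, limma adjusted p = 0.0175). Over all genes, counts of calls ranged over the settings from 0 to 293 for diet averaged (262 as reported), 0 to 155 at 9h (0), 0 to 72 at 15h (8), 0 to 27 at 21h (1), 0 to 839 for time within controls (3), 0 to 63 within high-fat mice (0) and 0 to 2509 for time averaged (193). Precision is limited by 2 libraries a group and, for the Lce3 and most Sprr2 genes, by few reads.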
